A study of Platichthys stellatus with 16 samples.

Results

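Mitochondrial DNA (mtDNA) genes of the starry flounder (Platichthys stellatus), a North Pacific flatfish, were followed across brain, liver, gonad and muscle of females and males. The features were those whose closest Swiss-Prot protein carries a gene name beginning with mt-, and 11 of the 16270 assembled features of the deposited expression table met that rule. Libraries came from 3-year-old fish in 8 groups, each 1 sex and 1 tissue: female brain, male brain, female liver, male liver, female gonad, male gonad, female muscle and male muscle. Each group held 2 libraries, 16 in all, and the labels name no treatment and do not say which fish stands behind which library. Where the series text names pituitary the sample labels name muscle, and the labels were followed.

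In vertebrates mtDNA is a small circular genome that encodes a few core subunits of the respiratory chain and of ATP synthase, together with the ribosomal and transfer RNAs that translate them. The core subunits sit in complex I (NADH dehydrogenase), complex III (the cytochrome bc1 complex), complex IV (cytochrome c oxidase) and complex V (ATP synthase), whereas complex II is encoded in the nucleus alone. Most genes are read from a few long transcripts of both strands that are then cut into single messages. Their RNA level in a tissue is known to follow both the number of mtDNA copies and their transcription, and it is usually high in tissues that use much oxygen.

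The 11 features carried 8 distinct gene names. Complex I was represented by ND1, ND5 and ND6, complex III by CYB (cytochrome b), complex IV by CO1, CO2 and CO3, and complex V by ATP6. CO1 was split over 3 features of 1 assembled cluster and CO2 over 2 features of another, and these are named here by the ending of their identifiers as CO1 (g1), CO1 (g3), CO1 (g5), CO2 (g5) and CO2 (g6). ND2, ND3, ND4, ND4L and ATP8 are not among the names. All 11 features reached at least 10 estimated counts in each of the 16 libraries.

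Feature and gene did not always coincide. The ND1 feature (TRINITY_DN131004_c2_g2) is 3019 bases long, longer than an ND1 coding sequence. The ND5 feature (TRINITY_DN133136_c5_g1) is 4515 bases long, and its domain annotation also lists NADH dehydrogenase chains 3 and 4L. A further 5 features are shorter than 400 bases: ND6 (TRINITY_DN133136_c5_g2) has 304, ATP6 (TRINITY_DN134971_c5_g3) 305, CO2 (g5) 233, CO2 (g6) 314 and CO1 (g1) 329. CO3 (TRINITY_DN104983_c0_g1) has 873 bases, CYB (TRINITY_DN142102_c0_g1) 1122 and CO1 (g5) 562. For 10 features the closest nucleotide entry in the authors' annotation was from Platichthys stellatus. For CO1 (g3), listed at 1825 bases, it was from Homo sapiens, and its values imply a sequence of 422 to 438 bases. CO1 (g3) held between 3.84 and 6.28% of the members' counts in a library, and its values are given below with that reservation.

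Estimated counts per library summed to between 5134221 and 12972574, and these cover between 51.4 and 80.5% of the fragments of a library. The table lists only features found in every library at 0.31 FPKM or more (fragments per kilobase of feature, scaled to library depth). Levels below are CPM, that is counts normalised to library size after TMM scaling, unless FPKM is named. Differences are on the log2 scale with their standard error (SE), from edgeR's quasi-likelihood F test, two-sided, with a Benjamini-Hochberg adjusted p below 0.05 as the threshold. Marker genes of liver and muscle followed the tissue labels. Summed hepatocyte markers stood at 110000 to 202000 CPM in liver and at most 252 elsewhere. Summed skeletal muscle markers stood at 7920 to 134000 CPM in muscle and at most 108 elsewhere. The neuron and glia list was thin, with 3 features, and it overlapped between tissues (116 to 1310 CPM in brain, up to 159 elsewhere). Of these only MBP, a myelin protein gene, marked brain, at 77.1 CPM or more there and at most 9.83 elsewhere. Mag stood at 2.18 to 6.01 CPM in brain and up to 89.5 CPM elsewhere, in male muscle 2. The gene slc17a7 stood at 37.1 to 94.3 CPM in brain and up to 136 CPM elsewhere, in female muscle 2. The sperm-tail gene odf3 was the single germ cell marker found. It stood at 83.9 and 80.0 CPM in female gonad, 46.7 and 50.1 CPM in male gonad and at most 9.01 elsewhere. It thus set gonad apart from the other tissues but was not higher in male than in female gonad.

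A pair of libraries stood far from their partner in the mtDNA genes. Female liver 1 exceeded female liver 2 in all 11 features, by a median of 9.67 times (4.0 to 59.6), and female gonad 2 exceeded female gonad 1 by a median of 9.35 times (3.91 to 13.1). In the other 6 groups the median ratio between the libraries of a group was 1.14 to 1.91. Results that rest on female liver or female gonad are therefore given with and without a library. With bulk RNA, more mitochondrial RNA per cell and more cells rich in mitochondria cannot be told apart.

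Female brain gave the 11 features the greatest part of its library. They held 24.8% of the listed counts in female brain 1 and 19.2% in female brain 2, against 2.44 and 2.42% in the male brain libraries. In liver they held 7.30 and 1.26% in the females and 1.30 and 1.09% in the males. In gonad they held 0.18 and 1.53% in the female libraries and 0.749 and 0.497% in the male libraries, so that female gonad 1 and both male gonads were the lowest of all and female gonad 2 lay just above the male muscles. Muscle held 2.84 and 2.72% in females, above both male brains, and 1.48 and 1.5% in males.

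The female and male libraries of a tissue did not overlap in brain and in muscle, whereas they did in liver and gonad. As group means the share was 22.0% ± 3.91 (SD, n = 2) in female brain and 2.43% ± 0.011 (SD, n = 2) in male brain, a ratio of 9.05. The corresponding female to male ratio of mean shares was 3.58 in liver, 1.37 in gonad and 1.86 in muscle. Without female liver 1 the liver ratio was 1.05, and the gonad ratio was 2.46 without female gonad 1 and 0.289 without female gonad 2. In brain it stayed between 7.91 and 10.2 with any 1 of the 4 libraries left out. In both female brain libraries 8 of the 10 features with the highest counts were members, against 3 of 10 in both male brain libraries. CO3, the third core subunit of cytochrome c oxidase, had the highest count of all 16270 features in the 4 brain libraries and in female gonad 2, and it ranked 99th in female gonad 1.

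**Figure D1:**
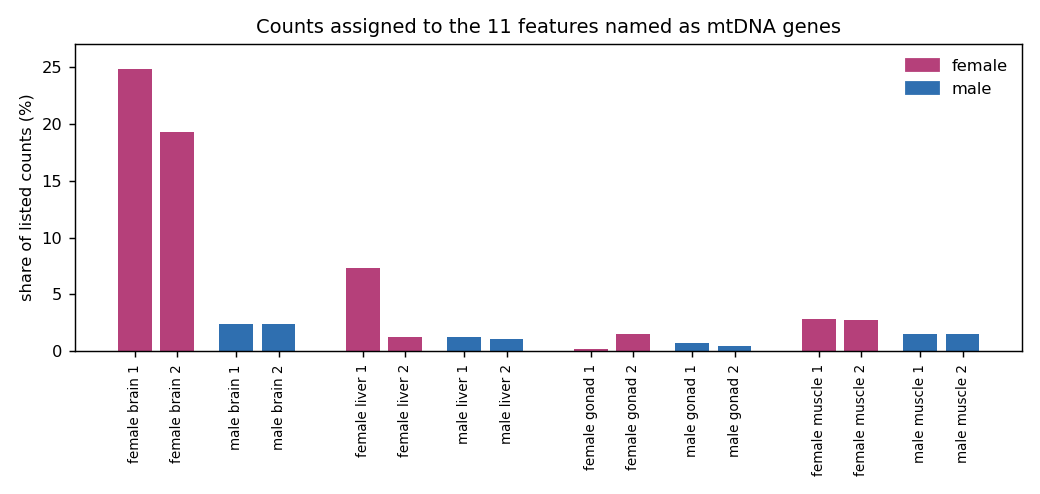
Share of each library's listed estimated counts (vertical axis, percent) held by the 11 features together, one bar per library, coloured by sex. The female brain bars reach 24.8 and 19.2% and the other 14 libraries stay at or below 7.30%.

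Complex I. ND1, a membrane-arm subunit next to the ubiquinone site, stood at 10200 and 5520 CPM in female brain and at 1110 and 973 CPM in male brain. In liver ND1 was at 4230 and 363 CPM in females and at 475 and 229 CPM in males. Its gonad levels were 48.5 and 400 CPM in females and 103 and 90.8 CPM in males, and its muscle levels 2610 and 1510 CPM in females and 461 and 446 CPM in males. The sexes did not overlap in brain and muscle, and in liver only female liver 1 lay above both male libraries.

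ND5, one of the proton-pumping subunits of complex I, was at 15000 and 12200 CPM in female brain and at 894 and 1120 CPM in male brain. Its liver levels were 6030 and 624 CPM in females and 666 and 647 CPM in males, so that female liver 2 lay with the males. In gonad ND5 stood at 113 and 746 CPM in females and at 169 and 202 CPM in males. The muscle levels, 3590 and 4040 CPM in females and 729 and 1020 CPM in males, did not overlap between the sexes.

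ND6, in vertebrates the single protein gene of the light strand, had the lowest counts of the members in all libraries but female liver 1. It stood at 189 and 124 CPM in female brain and at 5.62 and 6.23 CPM in male brain. Its highest level was in female liver 1, at 367 CPM, against 6.16 CPM in female liver 2 and 10.1 and 2.63 CPM in the male livers. ND6 was at 0.895 and 6.58 CPM in female gonad, 1.39 and 2.47 CPM in male gonad, 19.3 and 63.6 CPM in female muscle and 9.66 and 3.73 CPM in male muscle. Female liver 1 was thus the only library of the 16 in which ND6 exceeded its female brain levels, and its count there was 6.09% of that of ND5, against 0.367 to 1.57% in the other 15 libraries. The ND6 feature is short, and by the ratio of its count to its FPKM only 27 to 55 bases of it were usable for counting.

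Complex III. CYB, the catalytic membrane subunit of the cytochrome bc1 complex, stood at 71500 and 37200 CPM in female brain and at 3220 and 2570 CPM in male brain. In liver it was at 27700 and 2780 CPM in females and at 3810 and 2210 CPM in males. Gonad held 277 and 2680 CPM in females and 988 and 570 CPM in males. CYB was at 8220 and 6890 CPM in female muscle and at 4940 and 2420 CPM in male muscle, again without overlap.

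Complex IV. CO3 had the highest count of the members in every library, and its level ranged from 757 CPM in female gonad 1 to 126000 CPM in female brain 1. Female brain held 126000 and 74500 CPM of CO3, and male brain 4770 and 4590 CPM. Its liver levels were 47600 and 6670 CPM in females and 7080 and 5450 CPM in males. CO3 stood at 757 and 5630 CPM in female gonad, at 1420 and 870 CPM in male gonad, at 15300 and 13500 CPM in female muscle and at 6760 and 4960 CPM in male muscle. The sexes did not overlap in brain or in muscle, with the wider gap in brain, and female liver 1 and female gonad 2 stood above the other libraries of their tissue.

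CO1 encodes the subunit that holds the oxygen-reducing centre of cytochrome c oxidase. Its main feature, CO1 (g5), was at 47300 and 36500 CPM in female brain, 2780 and 3170 CPM in male brain, 13400 and 3370 CPM in female liver and 3060 and 2410 CPM in male liver. In gonad it was at 217 and 2270 CPM in females and at 691 and 539 CPM in males, and in muscle at 5750 and 7070 CPM in females and 1920 and 3570 CPM in males. CO1 (g1) and CO1 (g3) ran from 35.9 and 71.1 CPM in female gonad 1 to 9410 and 15500 CPM in female brain 1. The features of CO1 did not move in full step: the count of CO1 (g1) was a median 18.2% of that of CO1 (g5), but 66.2% in male muscle 1 and 10.7% in male muscle 2.

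CO2 encodes the subunit that takes electrons from cytochrome c. CO2 (g6) stood at 13700 and 10100 CPM in female brain, 651 and 630 CPM in male brain, 6220 and 813 CPM in female liver and 1110 and 630 CPM in male liver. It was at 57.3 and 748 CPM in female gonad, 201 and 162 CPM in male gonad, 2060 and 3330 CPM in female muscle and 2730 and 484 CPM in male muscle, where the sexes overlapped. CO2 (g5), of which only 5 to 15 bases were usable for counting, ran from 1.63 CPM in female gonad 1 to 916 CPM in female brain 1.

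Complex V. ATP6, the proton-channel subunit of ATP synthase, was at 2960 and 1490 CPM in female brain and at 49.4 and 51.3 CPM in male brain. Its liver levels were 1400 and 119 CPM in females and 106 and 44.0 CPM in males. In gonad the order of the sexes was mixed, with 6.51 and 25.5 CPM in females and 38.5 and 15.8 CPM in males. ATP6 stood at 256 and 383 CPM in female muscle and at 149 and 32.0 CPM in male muscle.

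**Figure D2:**
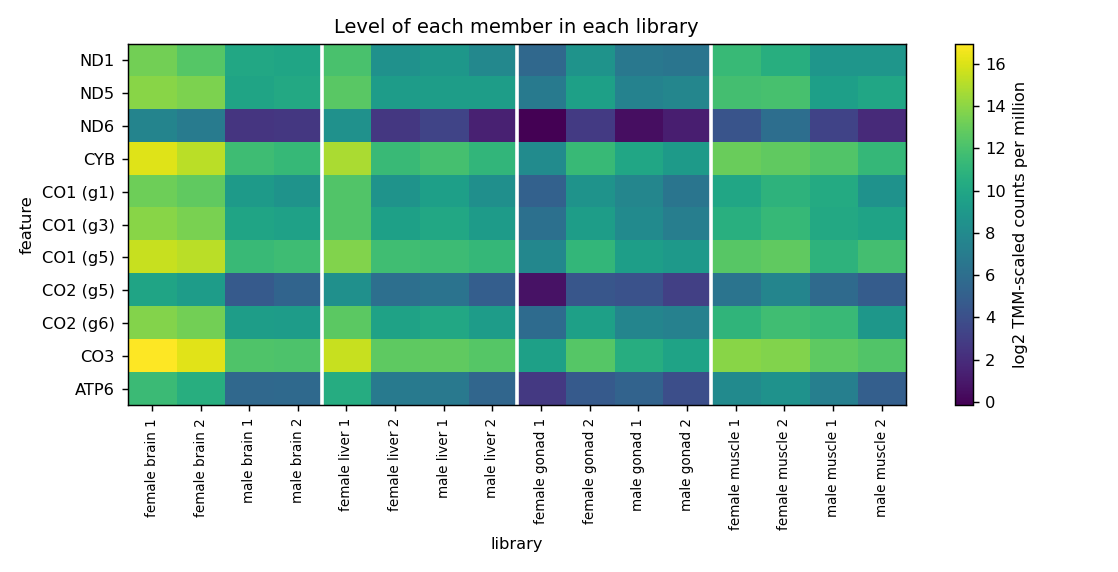
Level of each of the 11 features (rows, grouped by complex) in each of the 16 libraries (columns), as colour on the scale of log2 CPM after TMM scaling. The female brain columns are brightest for all features except ND6, whose highest value, 367 CPM, is in female liver 1, and female gonad 1 is darkest for all of them.

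Ranked by group mean, the 11 features shared nearly the same order of groups. Female brain had a median rank of 1 over the members, followed by female liver (2), female muscle (3), male muscle (4), male liver (5), male brain (6), female gonad (7) and male gonad (8). Male brain never ranked above 4 and female brain never below 2, and for ND6 female liver took the first place. The ranks of female liver and female gonad each rest on 1 high library. Neighbours in this order were close: in CO3 the male liver and male muscle libraries overlapped, and both male brain libraries lay just below them.

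Between genes, levels can be compared only per length. By the authors' FPKM, CO2 (g6), CO3 and CO1 (g5) stood highest (median rank 1, 2 and 3 of 11), ATP6 was 8th in every library, and the complex I features ND1, ND5 and ND6 took the last places. CO3 stood at 125874 and 89438 FPKM in female brain, against 2168 and 1407 FPKM for ND1 and 2163 and 2112 FPKM for ND5. The ND1 and ND5 features have 3019 and 4515 bases. The first is longer than an ND1 coding sequence, and the annotation of the second lists further chains. Their FPKM are thus values of these features, not levels of single messages. As a share of the summed FPKM of the 11 features, CO2 (g6) held a median of 24.1% (19.6 to 42.4%), CO3 18% (11.4 to 23.5%), CYB 7.33% (5.14 to 11.6%), ATP6 3.12% (1.24 to 5.55%), and ND1, ND5 and ND6 0.30, 0.37 and 0.36%. FPKM divides by the bases usable for counting, which are few for short features. Per kilobase of listed length instead, CO3, CO1 (g5) and CYB stood highest, CO2 (g6) was 4th by median rank and ND6 was 11th in every library, so the place of the short features depends on the length used.

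**Figure D3:**
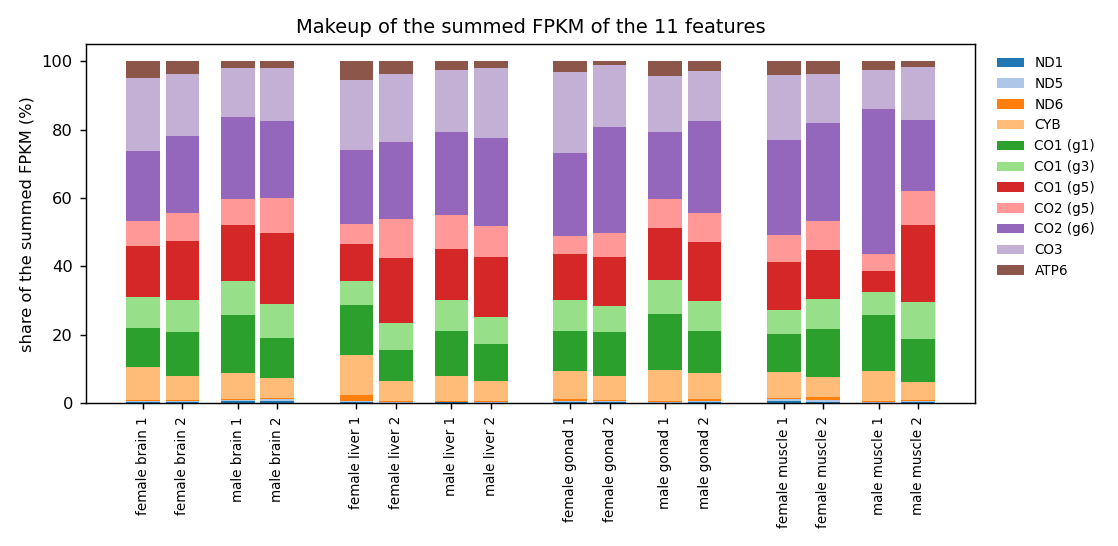
Makeup of the summed FPKM of the 11 features in each library (vertical axis, percent of the sum), one stacked bar per library and one colour per feature. CO2 (g6), between 19.6 and 42.4%, and CO3, between 11.4 and 23.5%, are large in all 16 bars, while ND1, ND5 and ND6 are thin.

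Ratios of counts within a library do not depend on scaling, and they show where the members parted from each other. The ND1 count was 23.3 and 21.2% of that of CO3 in male brain, against 8.09 and 7.41% in female brain. The other 12 libraries ran from 4.2 to 17.0%, with 17.0 and 11.2% in female muscle. Male brain was thus highest of all groups in the ND1 feature relative to CO3, without overlap. That feature, of 3019 bases, is longer than an ND1 coding sequence. How much of its count comes from ND1 itself was not tested. The ATP6 count was 2.34 and 2.01% of that of CO3 in female brain and 1.03 and 1.12% in male brain, within a range of 0.453 to 2.94% over all 16 libraries. CYB relative to CO3 varied less, from 36.5 to 73.1%. These ratios are given as a description, with no test.

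Tissues were compared as averages over both sexes, to ask where the mtDNA genes stood highest. All 11 members were higher in brain than in gonad, against a background of 26.8% of all features called higher in that comparison. The log2 differences ran from 3.35 to 4.28, with a median of 3.63 (all features: 0.04), and the adjusted p of edgeR's quasi-likelihood F test ran from 0.00047 to 0.0066. ND1 differed the most, by 4.28 ± 0.78 (SE), a 19.5-fold difference (edgeR, adjusted p = 0.00047). The brain averages join high female and lower male levels. ND1 stood at 10200 and 5520 CPM in female brain, 1110 and 973 CPM in male brain and at most 400 CPM in gonad. CO3 in male brain, at 4770 and 4590 CPM, lay below the 5630 CPM of female gonad 2 but above the other gonad libraries. For 7 members every brain library lay above every gonad library, which held for 11.1% of all features.

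Liver and muscle exceeded gonad as well. All 11 members were higher in liver than in gonad, where 29.6% of all features were called higher, by a median of 2.69 (2.39 for ND5 to 3.66 for ND6), with edgeR adjusted p from 0.0013 to 0.012. In 3 of the 11 every liver library lay above every gonad library (background 14.5%). All 11 were lower in gonad than in muscle, where 27.2% of features were called lower, by a median of -2.63 (-3.02 for ATP6 to -2.26 for CO1 (g5)), with edgeR adjusted p from 0.0035 to 0.027. Here 3 members did not overlap (background 13.4%).

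Both of these depend on the scaling and, for liver, on female liver 1. Fewer of the 11 members passed for liver against gonad without female liver 1, and fewer again without female liver 1 and female gonad 1. The number of all features called higher fell by a smaller part. Such fits leave 1 library in a group, and leaving out both was chosen after the values had been seen. With libraries scaled to their recovered total of fragments, 3 passed for liver (10% of all features called higher) and 1 for muscle (8.21% called lower in gonad), while brain against gonad kept all 11 (15.7% called higher). That scaling put the median of all features at -1.33 in liver minus gonad and at 1.35 in gonad minus muscle, and relative to that shift the members' medians were 2.54 and -2.54, against 2.63 and -2.65 with TMM scaling. The red blood cell marker hbaa, an alpha-globin gene, was also higher in brain (5.24), liver (4.2) and muscle (gonad minus muscle -5.10) than in gonad, and so were leukocyte markers in part. Of 4 leukocyte features, CD74 (2.30) and lcp1 (1.83) were higher in brain, LCP1 (7.66) in liver and lcp1 in muscle (gonad minus muscle -1.62). In these directions 26.8, 29.6 and 27.2% of all features were called, so the 1 of 4 in liver and in muscle is near the background. Summed leukocyte markers ran from 45.4 to 2270 CPM in gonad, 629 to 3170 in brain, 1450 to 19200 in liver and 486 to 1640 in muscle. The 19200 CPM was in female liver 2, where LCP1 alone held 18900 CPM, against 290 for CD74 and 46.2 for ptprc. That LCP1 feature stood at 414 CPM or more in liver and at most at 60.3 elsewhere. The part of these markers in the results was not tested.

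Brain, liver and muscle were not separated from each other by the main edgeR fit, with TMM scaling and all 16 libraries. Of the 11 members, 0 passed for brain against liver, where 39.7% of all features were called, and the members' differences ran from -0.17 (ND6) to 1.67 (ND1), with 1 at an unadjusted p below 0.05. DESeq2 called 2 (43.9% of all features) and limma on log2(FPKM + 1) called 10 (52.8%, with 46.0% higher and a median of 0.76 over all features). For brain against muscle, where 41.9% of features were called, edgeR called 0 (1 unadjusted), DESeq2 2 (45.7%) and limma 9 (52.7%, with a median of 0.77 over all features), with edgeR differences of 0.41 to 1.57. For liver against muscle, where 38.0% of features were called, edgeR, DESeq2 and limma each called 0, with 0 at an unadjusted p below 0.05 in edgeR and differences of -0.30 to 1.05. With listed or recovered totals edgeR itself called members for brain against liver and for brain against muscle, as given below. With those totals the median of all features was 0.67 and 0.83 in brain minus liver. In brain minus muscle it was 0.68 and 0.85. With only the groups compared in the fit, edgeR also called members for brain against muscle. The brain averages join a sex with high and a sex with low levels. More members were called in these comparisons without female liver 1 and female gonad 1. That setting was chosen after the values had been seen and leaves 1 library in each of those groups, so no conclusion is drawn from it.

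Females were compared with males within each tissue, since the labels give sex as the second factor. In brain all 11 members were higher in females, and 21.4% of all features were called higher there. The differences ran from 2.92 to 5.47, with a median of 4.22 against 0.12 for all features, and every female library lay above every male library for all 11, which held for 42.2% of all features. ATP6 differed the most, by 5.47 ± 1.17 (44.2-fold, edgeR adjusted p = 0.0058). CO3 was higher by 4.42 ± 1.19 (21.4-fold, edgeR adjusted p = 0.013) and CYB by 4.23 ± 1.23 (18.8-fold, edgeR adjusted p = 0.017).

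Among the complex I members the brain difference was smallest for the ND1 feature, which is longer than an ND1 coding sequence. ND1 was higher in female brain by 2.92 ± 1.03 (7.55-fold, edgeR adjusted p = 0.038), ND5 by 3.76 ± 0.99 (13.5-fold, edgeR adjusted p = 0.012) and ND6 by 4.72 ± 1.37 (26.3-fold, edgeR adjusted p = 0.018). The features of CO1 were higher by 3.82 to 4.05 and those of CO2 by 4.22 and 4.55. The median difference of the members stayed at 3.82 to 4.42 with any 1 of the 4 brain libraries left out. In each of these 4 fits fewer members were called, and in at least 1 of them most of the 11 no longer passed. Fewer of all features were called higher in each of them as well. There an arm of 1 library is assumed to vary like the other groups. With recovered totals 10 passed (10.5% of all features called higher), and the median of the members was 3.61 against -0.47 for all features.

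Other markers moved between the brains as well. The red blood cell list, of which 1 of 6 symbols was found, stood in female brain at 678 and 1790 CPM of hbaa and in male brain at 0.984 and 34.8 CPM, a difference of 6.11 ± 1.54 (edgeR adjusted p = 0.01). MBP, from the neuron and glia list, was at 1120 and 1250 CPM in female brain and 77.1 and 80.4 CPM in male brain, a difference of 3.91 ± 0.53 (edgeR adjusted p = 0.002), and it was the only one of that list's 3 features past the threshold. Summed leukocyte markers stood at 3170 and 1620 CPM in female brain and 1210 and 629 CPM in male brain, with 0 of 4 features called by edgeR, DESeq2 or limma and 0 at an unadjusted p below 0.05 in edgeR. Of the hepatocyte markers 3 of 6 features were higher in female brain, at sums of 252 and 75.2 CPM against 52.0 and 65.6 CPM. The part of these markers in the result was not tested.

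In liver 0 of 11 members passed between the sexes with edgeR (4 at an unadjusted p below 0.05), where 2.78% of all features were called, while DESeq2 called 4 (10.4% of all features) and limma 0. The differences were 1.62 to 4.89 with a median of 2.34 and edgeR adjusted p of 0.073 to 0.32, and 2 members did not overlap between the sexes (background 24.2%). Without female liver 1 the median was -0.03 (-0.40 to 0.66), so no female excess was left without that library. The red blood cell marker hbaa stood at 1510 CPM in female liver 1, 299 in female liver 2 and 8.44 and 3.23 in the male livers, and its part in the result was not tested.

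In gonad edgeR, DESeq2 and limma each called 0 of 11 members (0 at an unadjusted p below 0.05 in edgeR), where 47.1% of all features differed between female and male gonad. The differences ran from -0.76 for ATP6 to 1.48 for CO3, and 0 members had every female library above every male one, which held for 39.2% of all features. Their direction depended on 1 library: the median was 0.95 with all libraries, 1.78 without female gonad 1 and -1.52 without female gonad 2. The marker hbaa stood at 1.87 and 23.0 CPM in female gonad and 1.30 and 1.17 CPM in male gonad. Summed leukocyte markers stood at 45.4 and 168 CPM in female gonad and 304 and 2270 CPM in male gonad, with 2 of 4 features lower in females. The part of both in the result was not tested.

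In muscle 0 of 11 passed with edgeR (2 at an unadjusted p below 0.05), DESeq2 or limma, where 2.96% of all features were called. All 11 differences were above 0, from 0.74 for CO2 (g6) to 2.65 ± 1.29 for ND6 (edgeR adjusted p = 0.27), with a median of 1.30. For 9 members both female libraries lay above both male libraries, against 24.5% of all features. Muscle hbaa stood at 417 and 1600 CPM in females and 21.2 and 14.8 CPM in males, and summed skeletal muscle markers at 110000 and 134000 CPM in females and 28200 and 7920 CPM in males. The part of both in the result was not tested.

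**Figure D4:**
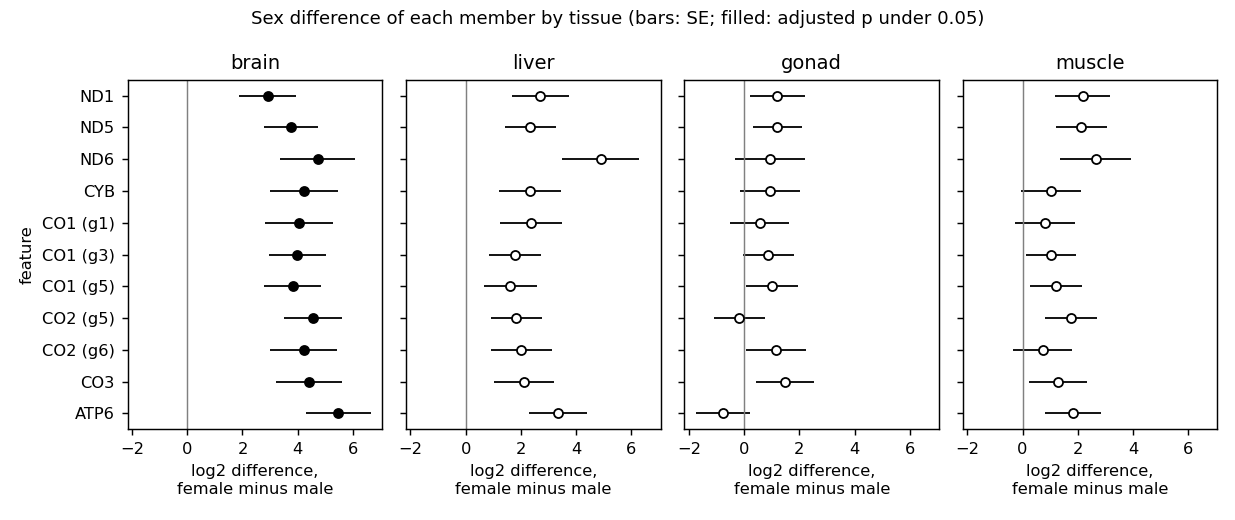
Female minus male difference of each feature (horizontal axis, log2 scale, with SE bars) in brain, liver, gonad and muscle, filled where the edgeR adjusted p is below 0.05. All 11 points are filled in brain, from 2.92 to 5.47, and none is filled in liver, gonad or muscle.

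Whether the sex difference itself changed between tissues was tested in the same fit. In brain it was greater than the mean of the other 3 tissues for ATP6 alone at the adjusted threshold, by 4.0 ± 1.19 (edgeR adjusted p = 0.046), where 6.15% of all features were called higher. All 11 members were above 0 in that contrast, from 0.88 (ND1) to 4.0 with a median of 2.79, and 8 had an unadjusted p below 0.05. With single libraries left out the number of members passing moved, and so did the number of all features called. Such fits leave 1 library in a group, and ATP6 did not pass in all of them. This contrast was added after the values had been seen.

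In gonad the sex difference was below the mean of the other 3 for ATP6, by -4.31 ± 1.2 (edgeR adjusted p = 0.014), where 18.5% of all features were called lower. The other 10 members ran from -3.13 (ND6) to -1.13 (CO3) and did not pass. ATP6 no longer passed without female gonad 1 or without male gonad 1. For the liver sex difference against that of brain and muscle together, edgeR, DESeq2 and limma each called 0 of 11 (0 at an unadjusted p below 0.05 in edgeR), with a background of 0.117%.

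The nuclear genes that make, copy and read mtDNA showed a pattern of their own. The list on mtDNA transcription, replication and RNA handling held 25 features, and 17 were lower and 0 higher in brain than in gonad (median -1.70), where 26.3% of all features were called lower and all 11 mtDNA genes were higher. In liver minus gonad 20 were lower and 1 higher (background 28.4% lower), and in gonad minus muscle 16 were higher and 4 lower (background 28.6% higher). TFAM, which packs mtDNA and starts its transcription, stood at 145 and 150 CPM in female gonad and 58.3 and 47.2 CPM in male gonad, against 5.60 and 9.43 CPM in female brain and 16.9 and 16.9 CPM in male brain. Its brain minus gonad difference was -2.97 ± 0.24 (edgeR adjusted p = 1.4e-06). The list's median kept its direction in brain minus gonad, liver minus gonad and gonad minus muscle under all 4 scalings run. With recovered totals the median of all features in these comparisons was itself -0.50, -1.33 and 1.35. With listed totals it was -0.21, -0.89 and 0.90. Both scalings thus moved all features in the direction of the list, so the kept direction is no separate check there.

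Between female and male brain 2 features of that list were higher and 3 lower (background 21.4 and 18.4%), with a median of 0.01 (1 and 5 with recovered totals, where 26.7% of all features were called lower, and 0 and 8 with listed totals, where 36.0% were). POLG, the catalytic subunit of the mtDNA polymerase, was lower in female brain, at 12.8 and 13.8 CPM against 73.8 and 56.2 CPM, by -2.29 ± 0.42 (edgeR adjusted p = 0.0037). HSD17B10, a subunit of the enzyme that trims mitochondrial transfer RNAs, was higher by 1.93 ± 0.47 (edgeR adjusted p = 0.009, or 0.073 when scaled to the listed totals), and Ptcd1, which binds leucine transfer RNAs of mitochondria, was lower by -1.61 ± 0.55 (edgeR adjusted p = 0.032). In female against male gonad, where 23.3% of all features were called higher, 15 of 25 were higher and 1 lower (median 1.48), or 10 and 2 with recovered totals (11.6% called higher), led by MTERF2 at 3.06, with 0 of 11 mtDNA genes called. In liver 0 of 25 passed between the sexes with edgeR, DESeq2 or limma (3 at an unadjusted p below 0.05 in edgeR), and in muscle 0 were higher and 2 lower (background 1.75% lower), or 0 and 9 with recovered totals (12.2% lower, with a median of -0.70 over all features).

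Among 11 features for nuclear regulators of mitochondrial number, 1 was higher and 2 lower in female than in male brain (median -0.50), against 21.4 and 18.4% of all features, so near the background. With recovered totals it was 0 and 4, and with listed totals 0 and 8, where 26.7 and 36.0% of all features were called lower. ESRRG, an orphan nuclear receptor that acts on genes of energy metabolism, has 2 features. The scarcer, TRINITY_DN128878_c0_g5, was lower at 0.534 and 1.26 CPM against 10.2 and 13.0 CPM, by -3.65 ± 0.69 (edgeR adjusted p = 0.004). The more abundant, TRINITY_DN128878_c0_g6, was not called, at 23.7 and 35.2 CPM in female brain and 38.7 and 44.4 CPM in male brain. For Ppara, a receptor for fatty acids, 1 of 2 features was lower by -1.62, at 2.8 and 2.1 CPM in female brain. The other Ppara feature was not called, at 47.8 and 56.1 CPM in female brain and 54.1 and 35.4 CPM in male brain. For Pprc1, a relative of the PGC-1 coactivators, 1 of 2 features was higher by 1.63, a call lost under the 3 other scalings (edgeR adjusted p of 0.051 to 0.29). The other Pprc1 feature was not called and lay lower in female brain, at 6.27 and 5.55 CPM against 9.28 and 12.2 CPM. Against gonad, brain had 2 higher and 3 lower, liver 2 higher and 4 lower, and gonad against muscle 4 higher and 3 lower. These were near the shares of all features called higher and lower (26.8 and 26.3%, 29.6 and 28.4%, 28.6 and 27.2%). With recovered totals they were 2 and 5, 2 and 8, and 8 and 2, where the shares were 15.7 and 37.8%, 10 and 59.8%, and 60.7 and 8.21%.

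The nuclear subunits of the same complexes I, III, IV and V, 77 features with 49 symbols, were also higher in female brain. There 40 were higher and 2 lower than in male brain, against 21.4 and 18.4% of all features, with a median of 1.39, a smaller median than the 4.22 of the members. ATP5J2, a small subunit of ATP synthase, was higher by 4.67 ± 0.89 (edgeR adjusted p = 0.0041), Ndufa12, an accessory subunit of complex I, by 3.98 ± 0.84 (edgeR adjusted p = 0.0057) and COX5B, of complex IV, by 3.88 ± 0.84 (edgeR adjusted p = 0.006). With recovered totals 28 were higher and 8 lower (10.5 and 26.7% of all features), and with listed totals 17 and 13 (7.12 and 36.0%), where the median of the list was 0.44 against -0.79 for all features. In female against male gonad 37 were higher and 4 lower (median 1.03), against 23.3 and 23.8% of all features. With recovered totals it was 23 and 6, against 11.6 and 34.8%.

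Between tissues the nuclear subunits were lower in brain and in liver than in muscle. Brain minus muscle had 46 lower and 4 higher, where 20.3% of all features were called lower, or 23 and 8 with recovered totals, where 8.45% were. Liver minus muscle had 50 lower and 3 higher, where 18.5% of all features were called lower. With recovered totals it was 54 and 3, where 2976 of 16270 features were called lower. Gonad minus muscle had 62 lower and 4 higher (median -1.5), where 27.2% were called lower, yet 13 and 12 with recovered totals, where 8.21% of all features were called lower and 60.7% higher, so no direction is drawn there. For brain minus gonad 19 were higher and 4 lower, against 26.8 and 26.3% of all features. This turned to 5 and 17 with recovered totals, where 2551 and 6154 of 16270 features were called higher and lower. Liver minus gonad had 13 higher and 12 lower, against 29.6 and 28.4% of all features. With recovered totals it was 3 and 57, where 1632 and 9734 features were called. No direction is drawn for either comparison.

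Complex II, which has no mtDNA subunit, was covered by 5 features. In brain 1 was higher in females, SDHC of the membrane anchor by 1.37, and 2 were lower, both named sdha after the flavin subunit, by -2.13 and -1.2 (median -1.2), against 21.4 and 18.4% of all features called higher and lower. The SDHC call was lost with recovered totals (edgeR adjusted p = 0.12). Gonad minus muscle had 3 of 5 lower (background 27.2%), and 2 higher and 1 lower with recovered totals (60.7 and 8.21%).

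**Figure D5:**
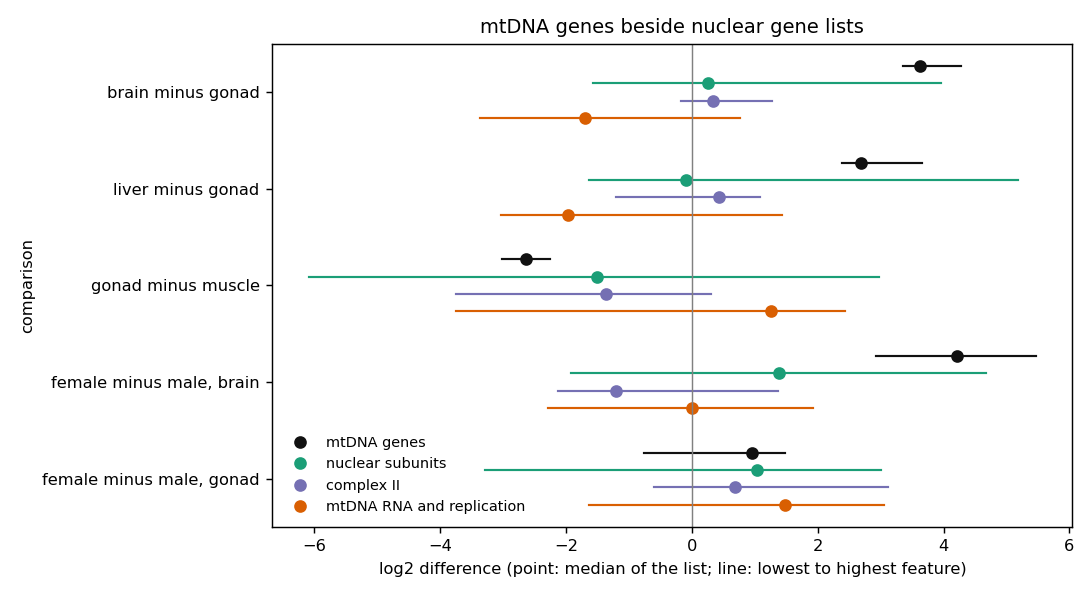
Median (point) and range (line) of the log2 difference of the 11 mtDNA genes and of 3 nuclear gene lists in 5 comparisons, with TMM scaling. The mtDNA genes lie at medians of 3.63 and 4.22 in brain minus gonad and in female minus male brain, while the list on mtDNA transcription, replication and RNA handling lies at -1.70 and 0.01.

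By their pattern over the 16 libraries, 5 of 11272 annotated features outside the rule reached a Pearson correlation of about 0.9 with the members' mean log2 CPM, and 64 were over 0.8. They were Lama4, a laminin chain of vessel walls (r = 0.94), selk, a selenoprotein of the endoplasmic reticulum (r = 0.903), PTPRB, a phosphatase of endothelial cells (r = 0.901), actba, a cytoplasmic actin (r = 0.901), and rsrp1 (r = 0.9). These are descriptions over libraries that share tissue, sex and scaling.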

How the data were processed

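Values came from 1 table of 16270 assembled features in 16 libraries, 2 per sex and tissue, which per the file headers holds an expected count and an FPKM for each library. The authors estimated the expected counts with RSEM, per the submitters' processing notes, and the deposited FPKM divides them by effective length and library total. Not given in the sources used here are the aligner, the strand setting, the versions and how RNA was selected. Extraction was with Trizol and sequencing on an Illumina HiSeq, per the labels. The protocol describes 24 libraries, and 16 value columns of no listed sample were not used.

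Here the expected counts were rounded and tested in edgeR 4.0.16 (R 4.3.3) with the two-sided quasi-likelihood F test after TMM scaling (factors 0.623 to 1.845), no filter, 1 mean for each of 8 groups over 16 libraries (8 residual degrees of freedom) and Benjamini-Hochberg adjustment over all features. The fit treats libraries as independent, and since the labels do not name the fish, p-values measure only the spread between these libraries. The SE is the log2 difference over the square root of F. The ratio of count to FPKM gave the recovered total of each library. The step was tested on simulated data. Alternatives used DESeq2 1.42.0, limma 3.58.1, other scalings, a filter, a replicate block and libraries left out.

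The members and the lists were chosen with earlier results of these data known. Named were all members, up to 3 called features per list and comparison with the largest difference (examples of which are given), and the 5 features closest in pattern. Lists held, as symbols sought, symbols found and features, 44, 25 and 25 (mtDNA transcription, replication and RNA handling), 11, 7 and 11 (regulators) and 4, 3 and 5 (complex II). The nuclear subunits were taken by name stem. Marker lists held 7, 5 and 6 (hepatocyte), 7, 2 and 3 (skeletal muscle), 7, 3 and 3 (neuron and glia), 6, 1 and 1 (red blood cell), 4, 3 and 4 (leukocyte) and 7, 1 and 1 (germ cell). No sequence of these features was used here.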

Additional observations from a re-analysis of the deposited data

Results flagged for a closer look

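The sex difference of ATP6, the proton-channel subunit of ATP synthase, differed between tissues. In gonad, female minus male was below the mean of the other 3 tissues by -4.31 ± 1.2 on the log2 scale (edgeR adjusted p = 0.014), and in brain it was above the mean of the other 3 by 4.0 ± 1.19 (edgeR adjusted p = 0.046). Both contrasts share the same libraries. The female minus male differences behind them were 5.47 in brain, 3.34 in liver, 1.83 in muscle and -0.76 in gonad. ATP6 was not alone in its cluster. TRINITY_DN134971_c5_g1, outside the rule, passed at -2.85 ± 0.84 in gonad and 2.84 ± 0.84 in brain (edgeR adjusted p = 0.018 and 0.045). CO2 (g5) stood at -2.89 ± 1.1 and 3.41 ± 1.11 and did not pass (edgeR adjusted p = 0.055 and 0.058). The remaining mtDNA features outside the rule passed neither contrast. The brain contrast was added after the values had been seen. ATP6 passed both contrasts in the fit with all libraries, but neither of them in every fit with a single library left out. The number of all features called moved between those fits as well.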

How the results depend on the processing

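Brain against gonad kept all 11 calls under each alternative run, single libraries left out included. The number of members called moved in other comparisons, and the causes were not tested. For brain minus liver it was 4 with listed totals, 8 with recovered totals, 2 with DESeq2's test and 10 with limma at either pseudocount (1 or 0.1). In the same order, 6602 and 1582, 7511 and 1311, 3380 and 3763, and 7486 and 1109 (pseudocount 1) of 16270 features were called higher and lower. Leaving out female liver 1 and female gonad 1, a setting chosen after seeing the data, moved counts too, but leaves 1 library in each of those groups. For brain minus muscle the number of members called was 8, 9, 2 and 9 in the same order, and 4 with only the groups compared in the fit. There 6406 and 1631, 7409 and 1375, 3651 and 3789, 7359 and 1209 (pseudocount 1), and 3592 and 3202 features were called higher and lower. Liver minus gonad gave 3 with recovered totals and 2 with limma at either pseudocount, where 1632 and 1314 (pseudocount 1) features were called higher. Gonad minus muscle gave 6 with listed totals, 1 with recovered totals and 5 with limma, where 2070, 1335 and 1106 (pseudocount 1) features were called lower. Between the sexes, liver gave 4 with DESeq2's test, where 1006 features were called higher and 680 lower. The gonad sex contrast gave 2 with listed totals, recovered totals or DESeq2's test, where 3272, 3170 and 3353 features were called lower. The brain sex contrast gave 7 with DESeq2's test and 0 with limma at 0.1, where 1953 and 266 features were called higher.

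With single libraries left out, a fit that leaves 1 library in a group, the number of members called moved in most comparisons. It moved in brain minus liver, brain minus muscle, liver minus gonad and gonad minus muscle. It also moved between the sexes of brain, liver and gonad, and in the gonad and brain sex contrasts. In liver minus muscle, the muscle sexes and the liver sex contrast it stayed at 0. The number of all features called moved between these fits as well. As a percentage of the recovered totals the members' share was 16.1 in female brain, 1.42 in male brain, 0.718 in male liver, 1.46 in female muscle and 0.942 in male muscle.

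Over all alternatives the called results of single members gave 1240 values, of which 1105 stayed past the threshold, 135 did not and 0 changed sign. Among these, the filter removed none of the 16270 features, so its values repeat the main fit. Many fits with a library left out dropped one of a tissue outside the comparison. The replicate number as a block changed none of the member counts, with 11 for brain minus gonad, liver minus gonad, gonad minus muscle and the brain sexes and 1 for ATP6 in each of its contrasts. It called more of all features. Higher were 4572, 4955 and 3872 of 16270 in brain minus gonad, liver minus gonad and the brain sexes, against 4367, 4816 and 3475. Lower in gonad minus muscle were 4568 against 4422. In the brain sex contrast 1580 against 1000 were higher, and in that of gonad 3276 against 3010 lower. The labels do not say that numbers pair the libraries, and in 28 pairs of groups same-numbered libraries deviated together with r from -0.31 to 0.59, of which 13 were over 0.1. With 2 libraries a group and 5 short features, differences under the spread between partners were not detectable.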

Other observations

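Outside the rule, 3 features had the Platichthys stellatus mitochondrion as their closest nucleotide entry but no gene name beginning with mt-. TRINITY_DN134971_c5_g1, of 430 bases, shares the assembled cluster of ATP6 and CO2, and it was higher in female than in male brain by 4.48 ± 0.81 (edgeR adjusted p = 0.0037), within the range of the named members. TRINITY_DN149051_c3_g3, of 778 bases, has a flatfish cytochrome b as its closest protein, and it was higher there by 2.72 ± 0.88 (edgeR adjusted p = 0.028), below the 4.23 of the CYB feature.

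TRINITY_DN127960_c1_g1, of 770 bases, went another way. Its estimated counts were 4942 and 5327 in female brain and 10785 and 6484 in male brain, and its sex difference there was -0.02 ± 1.33 (edgeR adjusted p = 0.99). It was higher in brain than in liver by 5.74 ± 1.18 (edgeR adjusted p = 0.0017), and in liver it had 715 and 13 counts in females and 5 and 19 in males. Its closest protein in the authors' annotation is not a mitochondrial one, so what it encodes is not given here.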
